A study of Homo sapiens with 3 samples.

Results

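The genes described here build ribosomes in the nucleolus. A list of 49 nucleolar and ribosome assembly genes was read from bead arrays of L428tetPU.1 cells, and every named probe of each gene was taken. Of these, 46 had a named probe, out of 19367 genes with one, and they were read by 53 probes. NOP58, DDX18 and GNL3 had no named probe and were not analysed here. L428tetPU.1 derives from L428, an established line of classical Hodgkin lymphoma, and carries a PU.1 (SPI1) gene that tetracycline keeps off. The labels give a medium with 500 ng/ml of tetracycline for all 3 samples and its removal as the treatment. The groups were cells at day 0, day 1 and day 3 of removal, and the comparisons asked what changes after removal, which switches PU.1 on. No culture kept in tetracycline for the same days was among the samples. The switching on of PU.1, the loss of the drug and time in culture therefore cannot be told apart. Each day had 1 array. The design text names 4 independent experiments, but the sources used here do not say whether their RNA was pooled, or whether the line is 1 clone.

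Ribosome assembly starts with RNA polymerase I, which copies the ribosomal RNA genes into one long precursor. Small nucleolar ribonucleoproteins then modify it, box C/D particles by methylation and box H/ACA particles by pseudouridylation. The small subunit processome folds and cuts the small subunit part of the precursor, and a second set of factors assembles the large subunit. Growing cells keep this pathway active, and many of its genes are known targets of the MYC transcription factor.

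Between 10838 and 11317 of 48701 probes were above background on an array, that is, had a detection p-value under 0.01. The 9 markers of Hodgkin Reed-Sternberg cells, TNFRSF8 and CCL17 among them, were above background on every array. Of the B cell markers with a probe, 1 of 5 was (BLK), and MS4A1, CD79A, CD79B and PAX5 were not. None of 6 T cell and 5 myeloid markers was above background. The 1 probe for SPI1 was not above background at any time, with intensities of 40.8 on the day 0 array, 35.3 on that of day 1 and 38.9 on that of day 3. The induction of PU.1 itself was thus not seen on these arrays.

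Most of the listed genes read lower than at day 0 both 1 day and 3 days after tetracycline removal, mainly by less than 2-fold. All 42 members above background were so on all 3 arrays, and TBL3, UTP20, RRP1 and NPM3 were not above background on any. The median change of the 42 was -0.72 log2 at day 1 and -0.64 at day 3, against medians of -0.05 and -0.06 over all measured genes. Below 0 lay 36 of 42 at day 1, against 4941 of 9311 measured genes, and 40 of 42 at day 3, against 5046 of 9190. With 1 array a day no test was possible. Changes were instead set against a size of 2-fold, of which "fell" and "rose" are used below, and of 1.5-fold. Probes of the same gene differed with an error of 0.36 log2 in the change at day 1 and 0.29 at day 3 (SD, from 416 genes with 2 probes). This probe error leaves out differences between cultures. The signals are those of whole cultures, so fewer cells with an RNA and less of it per cell cannot be told apart.

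At day 1, 6 of 42 members (14.3%) fell and 0 rose, while 7.98% of 9311 measured genes fell and 9.19% rose. At the 1.5-fold size the members stood further apart, with 25 of 42 (59.5%) lower, against 20.8% of all measured genes. At day 3, 5 of 42 (11.9%) fell and 0 rose, against 2.13% and 4.95% of 9190 genes. There 24 of 42 (57.1%) were at least 1.5-fold lower, against 12.7%. Among 2989 other genes with a mean signal in the middle range of the members, 21.9% were at least 1.5-fold lower at day 1 and 11.2% at day 3. With 75th percentile scaling in place of quantile normalization 10 members fell at day 1 and 9 at day 3, against 10.8% and 3.95% of all measured genes. Of the members that fell, PPAN at day 1 and GAR1, DDX10 and BOP1 at day 3 lay so near 2-fold that their calls ended with an offset of 50 in the background correction, and those of GAR1 and DDX10 also without that correction.

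**Figure D1:**
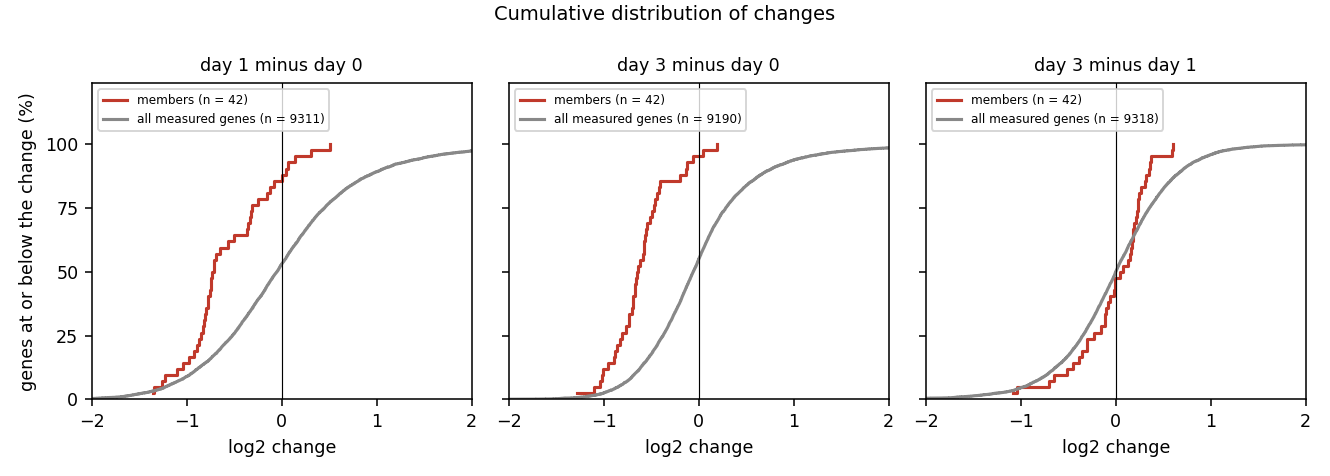
Cumulative share of genes (vertical axis, percent) at or below each log2 change (horizontal axis) for the 42 measured members (red) and all measured genes (grey), for day 1 minus day 0, day 3 minus day 0 and day 3 minus day 1. The member curve lies left of the grey one against day 0, with medians of -0.72 and -0.64, and the 2 curves cross each other for day 3 minus day 1.

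RefSeq promoter windows on GRCh38.p14, from 250 bases before to 50 after a start, were found for 42 of the 49 listed genes. They are shown because most listed genes read lower than at day 0 and because the E-box CACGTG is the site that MYC and its partner MAX bind. A role of MYC in these changes was not tested. The E-box, which reads the same on both strands, stood in at least 1 window of 19 of 42 listed genes (45.2%), against 12.9% of 7522 genes measured at day 1 and 8.77% of all 27305 genes with a window. Of the 22 matches in listed genes, 17 (77.3%) began within 50 bases of the start, compared with 38.4% of matches in measured genes. The following lines give the bases around it in those members that passed the 2-fold size in a comparison, and in FBL and DDX21, with the E-box in capitals.
RRP9 (chr3:51941892-51941921, minus strand): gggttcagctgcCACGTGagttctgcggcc
MRTO4 (chr1:19251807-19251836, plus strand): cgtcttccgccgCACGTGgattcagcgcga
LYAR (chr4:4290068-4290097, minus strand): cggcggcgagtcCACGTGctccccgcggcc
GAR1 (chr4:109815781-109815810, plus strand): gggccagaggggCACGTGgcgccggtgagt
NOL6 (chr9:33473894-33473923, minus strand): ggcatttccgccCACGTGggaagctatgag
NOP2 (chr12:6568242-6568268, minus strand): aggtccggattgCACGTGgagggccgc
FBL (chr19:39846356-39846385, minus strand): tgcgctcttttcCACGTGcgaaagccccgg
DDX21 (chr10:68956604-68956633, plus strand): ggccgggtgtccCACGTGgtccccggcgac
The E-box began 5 bases before the start of RRP9, 31 before that of DDX21 and 64 before that of LYAR. In the others it began after the start, at base 7 in FBL, 14 in NOL6, 15 in MRTO4, 32 in GAR1 and 36 in NOP2. DDX10, NOP16 and PPAN, which also fell, had no match in their windows, and BOP1, which fell at day 3, was not searched here.

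Members with and without the E-box had medians close to each other. The 17 measured members with it had a median of -0.73 log2 at day 1 and -0.58 at day 3, and the 20 without it had -0.73 and -0.66. At least 1.5-fold lower at day 1 were 10 of the 17 and 13 of the 20, against 20.8% of all measured genes. For 9 further motifs, searched on both strands, the share of listed genes and of measured genes was as follows. GGAAGTGA stood in 31.0% against 6.57%, CCGGAAGT in 19.0% against 11.0% and GAGGAAGT, the form closest to the PU.1 site, in 9.52% against 4.01%; these motifs share the letters GGAAGT and can overlap. CACGCG stood in 28.6% against 22.5%, TTCCGGG in 19.0% against 16.3% and GCCATNTTG in 11.9% against 7.13%. CATGCG stood in 11.9% against 13.1%, the palindromic NRF1 motif, which contains it, in 9.52% against 2.88%, and the palindromic ZBTB33 motif in 2.38% against 1.17%. A match describes letters in these windows and shows no binding.

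The genes of box H/ACA proteins read lower than at day 0 at both times. All 4 were at least 1.5-fold lower at day 1, against 20.8% of all measured genes. At day 3 this held for 3 of the 4, against 12.7%. GAR1, which joins the particle late in its maturation, read 741, 335 and 330.3 in bead intensity at day 0, day 1 and day 3. It fell at day 3, by 1.04 log2, after a change of -0.98 at day 1 that stopped just short of 2-fold. DKC1, the pseudouridine synthase itself, read 6938, 3355.5 and 3753.5, or changes of -0.90 and -0.76. NHP2, an RNA-binding core protein, read 3472, 1875 and 1745, or -0.71 and -0.83. NOP10, the smallest core protein, read 1561, 754 and 967, or -0.87 and -0.52, and its signal at day 3 lay between those of the other days.

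Of the 3 listed genes of box C/D particles, 2 were read. FBL, the methyltransferase fibrillarin, read 2649, 1491 and 2243 at day 0, day 1 and day 3. Its change was -0.65 log2 at day 1 and -0.06 at day 3, so that day 3 stood 1.5-fold above day 1, by 0.59, and close to day 0. NOP56, a scaffold of the same particle, read 4026, 2813 and 2573, with changes of -0.36 and -0.46 and no return.

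**Figure D2:**
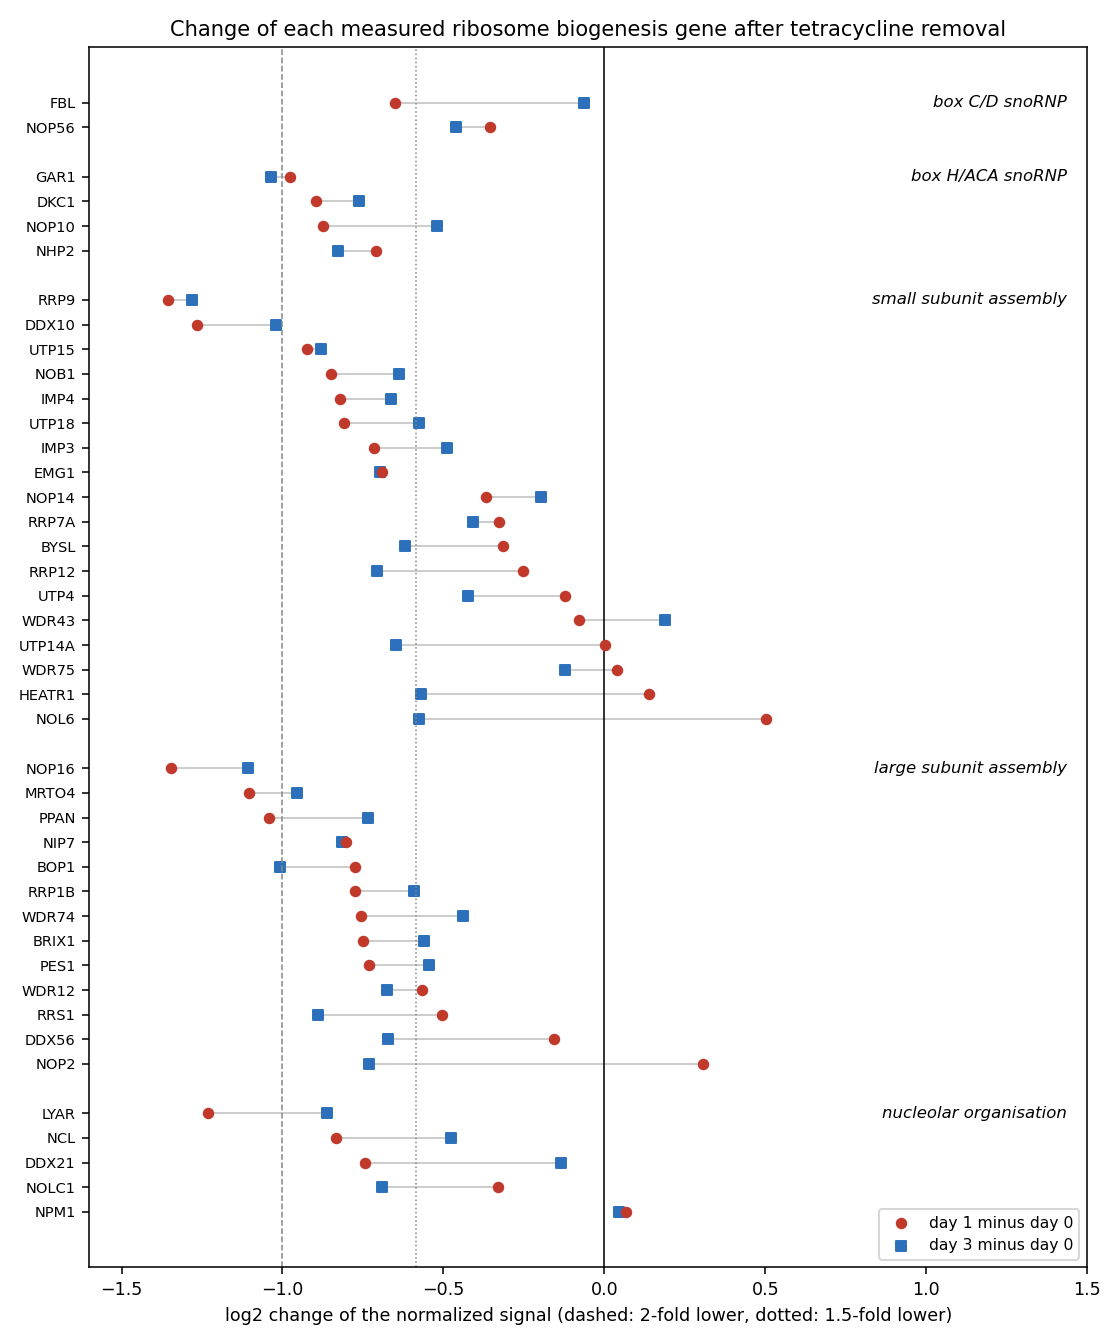
Log2 change of the normalized signal against day 0 (horizontal axis) for each of the 42 measured members, grouped by role and sorted by the day 1 change. Red circles are day 1, blue squares day 3, 1 array each. The circles of RRP9 and NOP16 lie at -1.36 and -1.35 and their squares at -1.28 and -1.11. All 4 box H/ACA genes lie left of -0.5 at both times.

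The small subunit factors varied among themselves. Of 18 measured 2 (11.1%) fell at day 1 and 2 at day 3, against 7.98% and 2.13% of all measured genes, with medians of -0.35 and -0.60 log2. RRP9, a WD-repeat protein of the U3 particle, read 676 at day 0, 241 at day 1 and 260.1 at day 3. It fell by 1.36 at day 1, or 2.56-fold, and by 1.28 at day 3. At day 1 NOP16, a large subunit factor at -1.35, differed from it by less than the probe error, and was the lower of the pair in the authors' values, with an offset of 50 and without background correction. DDX10, an RNA helicase of the processome, read 259, 109.5 and 130.0, and fell by 1.26 and 1.02. These are the same 2 genes at both times.

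Other parts of the processome differed from each other. UTP15, of the subcomplex that loads first on the precursor, read 225, 118 and 124.8, with changes of -0.93 and -0.88. Its listed partners in that subcomplex did not match it at day 1. At day 3 HEATR1 came nearest to it, with -0.57 against -0.88 for UTP15. In the authors' values the 2 were closer, at -0.76 and -0.86. UTP4 changed by -0.12 and -0.42, WDR43 by -0.08 and 0.19, WDR75 by 0.04 and -0.12, and HEATR1 by 0.14 and -0.57. IMP3 and IMP4, whose yeast counterparts pair U3 RNA with the precursor, changed by -0.72 and -0.82 at day 1 and by -0.49 and -0.66 at day 3. NOB1, the endonuclease that makes the final cut of small subunit RNA, changed by -0.85 and -0.64, and EMG1, an RNA methyltransferase, by -0.69 and -0.70. RRP7A was read by 2 probes above background on all arrays, which gave -0.33 and -0.10 at day 1 and -0.41 and -0.33 at day 3. RRP7A has a pseudogene copy that its probes may also read.

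NOL6, whose yeast counterpart acts with that of RRP7A, took another course. It read 3398 at day 0, 4267 at day 1 and 2033 at day 3. The change was 0.50 log2 at day 1 and -0.57 at day 3, and from day 1 to day 3 NOL6 fell by 1.08. UTP14A, whose yeast counterpart activates the helicase that releases U3, read 288, 262 and 178. After normalization it was level at day 1, with 0.00, and changed by -0.65 at day 3.

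Of 13 large subunit factors measured, 3 (23.1%) fell at day 1 and 2 (15.4%) at day 3, against 7.98% and 2.13% of all measured genes. Of the 13, 9 (69.2%) were at least 1.5-fold lower at day 1 and 10 (76.9%) at day 3, against 20.8% and 12.7%. Their medians were -0.76 and -0.73 log2. NOP16 read 2465, 865 and 1025 at day 0, day 1 and day 3, and fell by 1.35 and 1.11. MRTO4, a relative of the ribosomal stalk protein P0 that holds its place during assembly, read 859, 356 and 401. It fell at day 1, by 1.10, and changed by -0.95 at day 3. PPAN, which helps the early cutting steps, read 1111, 471 and 592, and fell by 1.04 at day 1. Its transcript runs through into the neighbouring P2RY11 in a known fusion, which the probe may also read. PPAN changed by -0.73 at day 3.

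The proteins PES1, BOP1 and WDR12 form a single complex needed for large subunit RNA maturation, and all 3 genes read lower than at day 0. BOP1 read 5293 at day 0, 2837 at day 1 and 2405 at day 3. Its change was -0.78 at day 1, and it fell by 1.01 at day 3. PES1 read 264, 152 and 175.5, or -0.73 and -0.55, and WDR12 read 2224, 1331 and 1242.5, or -0.57 and -0.68. The widest difference among the 3 genes was 0.21 log2 at day 1 and 0.46 at day 3, against a probe error of 0.36 and 0.29 for each.

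NOP2, an RNA methyltransferase of the large subunit, resembled NOL6. It read 3047 at day 0, 3319 at day 1 and 1647 at day 3. The change was 0.31 at day 1 and -0.73 at day 3, and from day 1 to day 3 NOP2 fell by 1.04. DDX56, a helicase, read 467, 366.5 and 269.5, with changes of -0.16 and -0.67. RRS1, whose yeast counterpart helps bring the 5S RNA particle into the subunit, changed by -0.50 and -0.89. WDR74 was read by 2 probes above background on all arrays. The brighter changed by -0.76 at day 1 and the other by -1.31, while at day 3 they gave -0.44 and -0.65. The remaining probe of WDR74, not above background at day 0, gave 0.02 and 0.28.

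The genes of nucleolar proteins with wider duties varied widely, and 1 of 5 measured (20.0%) fell at day 1, against 7.98% of all measured genes. LYAR, a zinc finger protein of growing cells, read 1335, 500.3 and 652.5 at day 0, day 1 and day 3. It fell by 1.23 at day 1 and changed by -0.86 at day 3. NCL, nucleolin, read 1375.5, 683 and 874, or -0.83 and -0.48. DDX21, a helicase that couples polymerase I to processing, read 3848, 2022 and 3083. Its change of -0.74 at day 1 was -0.13 at day 3, so that day 3 stood 0.61 above day 1. NOLC1, a chaperone of nucleolar particles, read 537, 375 and 307, or -0.33 and -0.69. NPM1, nucleophosmin, read 13057, 14534 and 13494 and changed by 0.07 and 0.05. NPM1 has many pseudogene copies that its probe may also read.

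Between day 1 and day 3 the list as a whole stood still, with a median change of 0.06 log2 against 0.00 over all measured genes. NOL6 and NOP2 fell, 2 of 42 members (4.76%), against 3.92% of 9318 measured genes, and 0 rose, against 3.54%. FBL and DDX21 were the only members at least 1.5-fold higher at day 3 than at day 1, 4.76% against a background of 12.5%. Both stood close to that size, at 0.59 and 0.61 log2, and just short of it in the authors' values, at 0.54 and 0.56. At the 1.5-fold size 4 members were lower, or 9.52% against 12.9%. By the same size against day 0, 16 members were lower at both times, 9 only at day 1, 8 only at day 3 and 9 at neither. Several stood close to the size, so these groups describe the arrays and are not classes of genes.

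**Figure D3:**
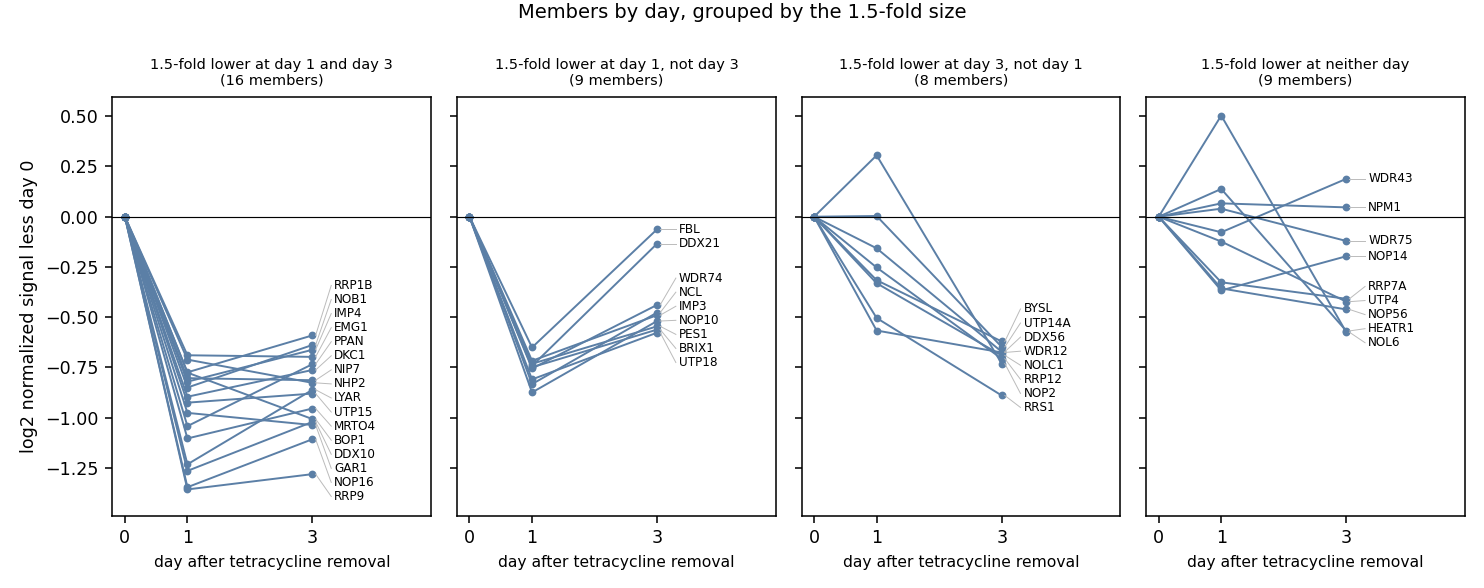
Log2 normalized signal less its day 0 value (vertical axis) at day 0, day 1 and day 3 (horizontal axis, days), 1 line per member, in 4 panels by whether the member was at least 1.5-fold lower at day 1 and at day 3. FBL and DDX21 end near day 0 in the panel of members lower at day 1 alone, and NOP2 and NOL6 have their highest point at day 1.

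Further genes of the pathway were taken from 5 lists of 118 genes that hold no member. Of 35 other small subunit factors measured at day 1, 5 (14.3%) fell and 0 rose, against 7.98% and 9.19% of all measured genes. These were PNO1, a partner of NOB1, at -1.59 log2, UTP11 at -1.47, RCL1 at -1.13, TSR3 at -1.06 and SNU13, a protein of box C/D particles, at -1.02. The list's median was -0.45 at day 1 and -0.41 at day 3, when WDR46 fell by 1.08 and PWP2 fell by 1.01 (5.71% of the list, against 2.13%). Of 38 other large subunit factors 1 (2.63%, against 7.98%) fell at day 1, PAK1IP1, by 1.34, with medians of -0.37 and -0.47, and at day 3 0 passed the 2-fold size. Of 12 genes of the RNA exosome, which trims the precursor, and its cofactors, 2 (16.7%, against 7.98%) fell at day 1, EXOSC3 at -1.43 and EXOSC6 at -1.04, with medians of -0.50 and -0.40, and at day 3 0 fell. Each of these 3 medians lay between that of the members and that of all measured genes at both times.

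RNA polymerase I and its factors had medians of -0.35 log2 at day 1 and -0.46 at day 3 over 15 measured. TAF1A, of its promoter factor, fell by 1.03 at day 1, and POLR1B, its second largest subunit, fell by 1.07 at day 3, each 6.67% of the list, against 7.98% and 2.13%. MYC read 1104 at day 0, 612 at day 1 and 814 at day 3. Its changes of -0.64 and -0.24 were both short of 2-fold. The change at day 1 passed the 1.5-fold size, as did 20.8% of all measured genes in that direction, and the change at day 3 did not. Over the list of MYC and its partners, which also holds its competitor MXD1 and relatives of MXD1, the median was -0.06 at both times. MXD1, which competes with MYC for MAX at E-boxes, read 103, 586 and 393 and rose by 2.84 and 2.21. It was the 1 gene of 9 measured (11.1%) past the 2-fold size at either time, while 9.19% and 4.95% of all measured genes rose. Its relatives on that list did not share this rise. MXD3, not above background at day 1, was at least 1.8-fold lower there. MXI1 changed by -0.59 at day 1, MXD4 by -0.06 and MNT by 0.56.

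**Figure D4:**
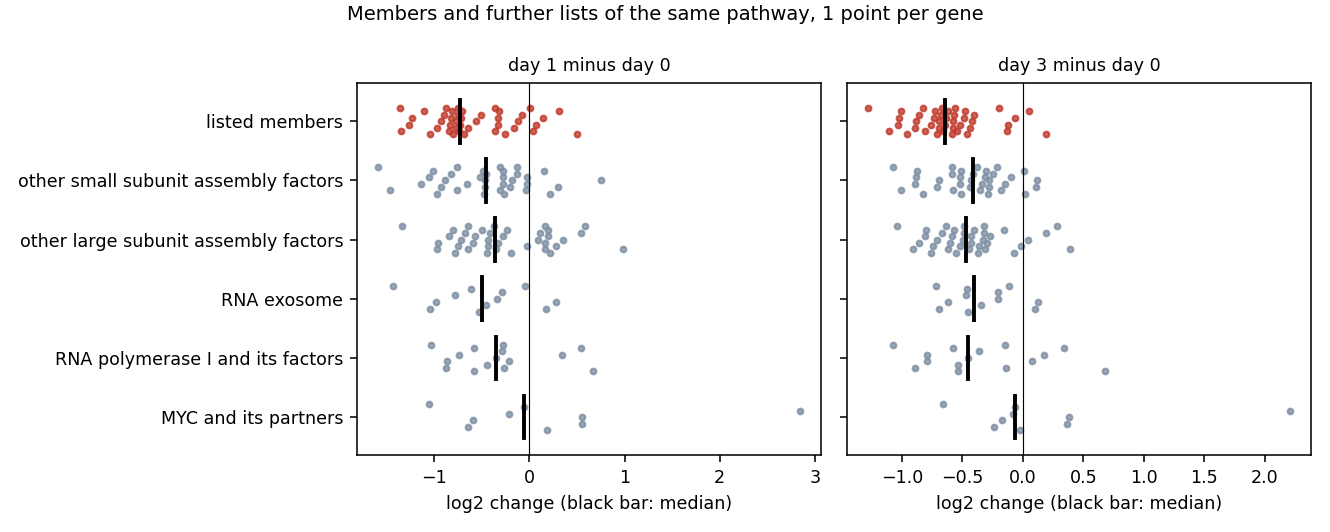
Log2 change at day 1 (left) and day 3 (right) against day 0 for the 42 measured members (red) and 5 further lists (grey), 1 point per gene with medians as black bars. The member median is the lowest of the 6 at both times, at -0.72 and -0.64, and the point far to the right is MXD1, at 2.84 and 2.21.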

How the data were processed

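Bead intensities and detection p-values were deposited by the authors as non-normalized values of 48701 probes, per the file headers, and BeadStudio 3.3.7 is the software in the submitters' processing notes. The authors' log2 table was found to be the log2 intensity minus each array's 75th percentile and minus the probe's median over arrays (largest deviation 2.5e-06), so it holds differences and no levels, with column medians of 0.

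Intensities were background-corrected with limma 3.58.1 in R 4.3.3 (normexp, background from the detection p-values), given an offset of 16, quantile normalized and taken as log2. Other steps used Python 3.11.15, pandas 2.3.3, numpy 2.4.6 and matplotlib 3.10.9, and were tested on simulated data. A platform table, updated through RefSeq (GRCh38.p14), named 24303 probes with 1 symbol each; 0 had several and 24398 none. The gene ID named 24089, the accession 50, and 164 kept the platform's symbol. The brightest probe stood for a gene. A gene was measured if above background (detection p under 0.01) on either array compared; where only 1 was, a bound against the lowest signal above background had to pass the size too. The number of arrays, 1 a day, limits the precision. Members past the 2-fold size in any comparison, the extremes of each role group at day 1 and members with 2 probes above background were named, with others added after their values were seen. From further lists those past 2-fold were named. Members, lists and motifs were chosen with earlier results of these data known. The changes at day 1 and day 3 share the day 0 array.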

Additional observations from a re-analysis of the deposited data

Results flagged for a closer look

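NOL6 moved in opposite directions at the 2 times, each by more than the probe error: its log2 change against day 0 was 0.50 at day 1 and -0.57 at day 3. Neither of these changes reached the 1.5-fold size. In the authors' values they were 0.37 and -0.75, and with 75th percentile scaling 0.36 and -0.76. The day 1 change there was close to the probe error of 0.36. With 1 array a day the difference was not tested. A second probe for NOL6, not above background on any array, read 43.2, 54.2 and 36.6 at day 0, day 1 and day 3.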

How the results depend on the processing

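8 alternatives were run. The median of the members stayed between -0.86 and -0.68 log2 at day 1 and between -0.80 and -0.57 at day 3, and less the median of all measured genes between -0.71 and -0.64 and between -0.62 and -0.52. Members at least 1.5-fold lower numbered 25 to 27 at day 1 and 20 to 36 at day 3. The number that fell by 2-fold depended on the scaling. With 75th percentile scaling it was 10 (23.8%) at day 1 and 9 (21.4%) at day 3, against 10.8% and 3.95% of all measured genes. In the authors' values it was 9 (21.4%) and 8 (19.0%), against 9.17% and 2.82%. At day 3 it was 3 (7.14%) without background correction, against 1.44%, and 2 (4.76%) with an offset of 50, against 1.06%. Members at least 1.5-fold higher at day 3 than at day 1 numbered 0 in the authors' values and with 75th percentile scaling, and 1 with an offset of 50 and without background correction. Over all measured genes at day 3, 363 fell with 75th percentile scaling and 97 with an offset of 50, and from day 1 to day 3 200.0 rose with an offset of 50. The causes were not tested. The share of rises among all genes past 2-fold was 53.5% at day 1 and 69.9% at day 3, but 42.9% and 54.9% in the authors' values and 42.0% and 50.7% with 75th percentile scaling. These 2 scalings moved the median of all measured genes to between -0.13 and -0.18 against day 0. Of the 2-fold calls of single members, DDX10 and GAR1 at day 3 ended without background correction and with an offset of 50, as did BOP1 at day 3 and PPAN at day 1 with the offset; DKC1, GAR1 and NOP10 at day 1 and LYAR and MRTO4 at day 3 passed in both scalings, and NHP2 at day 3 with the 75th percentile. No named member's call turned direction. No paired analysis was possible because each day has 1 array. Signal over background limits TBL3, UTP20, RRP1 and NPM3, for which no change is given.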

Other observations

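Among the large subunit factors outside the list, PELP1, TEX10 and LAS1L had signals like those of NOL6 and NOP2. Their proteins form a complex that works on late large subunit precursors. They were chosen after their values were seen. TEX10 read 936, 1596 and 665.5 at day 0, day 1 and day 3, changed by 0.98 log2 at day 1 and -0.31 at day 3, and fell by 1.30 from day 1 to day 3. LAS1L read 415, 524 and 258, changed by 0.54 and -0.58, and fell by 1.13 from day 1 to day 3. PELP1 read 249.7, 329 and 189.7 and changed by 0.58 and -0.33, and by -0.91 from day 1 to day 3. SENP3, a protease found with them, read 96.5, 100.1 and 55.7 and changed by only 0.11 at day 1. It was not above background at day 3, where it was at least 1.74-fold lower than at day 1. NOL9, another of these large subunit factors, had no peak at day 1. It read 408, 271 and 206.5 and changed by -0.45 at day 1 and -0.91 at day 3. WDR46, a small subunit factor, read 466, 495 and 210.5 and fell by 1.37 from day 1 to day 3.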
